A study of Homo sapiens with 6 samples.

Results

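Metallothioneins and their regulator MTF1 were examined in MDA-MB-231 cells, a human cell line established from a triple negative breast cancer (TNBC), with and without knockdown of PELP1, a nuclear coregulator of transcription factors. The genes were taken by symbol, and 9 of the 23228 genes in the count tables belong to the group, namely 8 metallothionein genes (MT1A, MT1E, MT1F, MT1G, MT1L, MT1M, MT1X and MT2A) and MTF1. Of these, 6 had enough reads to be tested. RNA-seq was carried out on 3 control replicates, which carry a shRNA with no target, and on 3 PELP1-KD replicates, which carry a shRNA against PELP1. Both groups were made with lentiviral particles, selected as stable lines with puromycin and grown in RPMI medium with 10% FBS. The knockdown rests on a single PELP1 shRNA, and nothing in the labels says that the replicates were selected or cultured separately. The p-values therefore measure the spread between these replicates, which may be technical. In such bulk RNA, fewer cells that express a gene and less RNA of that gene per cell cannot be told apart.

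Metallothioneins are small proteins rich in cysteine that bind zinc, copper and cadmium ions and buffer the free metal inside the cell. Their genes are switched on by metals through MTF1, a zinc finger transcription factor that senses zinc and binds short metal response elements in their promoters, and several of them also respond to glucocorticoids and oxidative stress. MT2A is the main isoform in most human tissues, and MT1E is known for its expression in breast cancer cells that lack the estrogen receptor. Raised metallothionein levels are a common sign of metal loading, and MTF1 also drives SLC30A1, which exports zinc across the plasma membrane.

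All 8 metallothionein genes lie in a cluster of 76 kb on chromosome 16, from 56608199 to 56684196 (GENCODE release 29 on GRCh38). In the order of the chromosome they are MT2A, MT1L, MT1E, MT1M, MT1A, MT1F, MT1G and MT1X, with MT1G alone on the minus strand. MT1L is annotated as a transcribed pseudogene and the others as coding genes. MTF1 lies on chromosome 1, from 37809567 to 37859620 on the minus strand. The coding sequences of the 3 most abundant metallothioneins are shown because their likeness decides how reads can be assigned between them. They come from the principal transcripts of GENCODE, are written 5′ to 3′, and capitals mark the bases of MT1E and MT1X that differ from MT2A.
MT2A: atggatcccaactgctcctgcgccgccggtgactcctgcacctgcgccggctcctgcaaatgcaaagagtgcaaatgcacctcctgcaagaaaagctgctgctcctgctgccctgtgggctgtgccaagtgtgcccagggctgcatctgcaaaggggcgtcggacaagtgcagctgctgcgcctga
MT1E: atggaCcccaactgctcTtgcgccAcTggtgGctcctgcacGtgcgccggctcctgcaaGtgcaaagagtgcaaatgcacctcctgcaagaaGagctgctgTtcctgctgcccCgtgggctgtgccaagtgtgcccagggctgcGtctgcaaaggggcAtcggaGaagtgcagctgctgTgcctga
MT1X: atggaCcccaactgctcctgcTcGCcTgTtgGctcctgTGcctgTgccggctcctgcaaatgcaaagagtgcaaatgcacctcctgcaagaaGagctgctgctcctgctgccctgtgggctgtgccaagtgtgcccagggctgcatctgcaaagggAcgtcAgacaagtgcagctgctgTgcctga

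Each of the 3 coding sequences has 186 bases and 61 codons before the stop, of which 20 (32.8%) encode cysteine. MT1E and MT1X each differed from MT2A at 14 bases, an identity of 92.5%, and from each other at 17 bases (90.9%). The longest run that MT1E shares with MT2A has 32 bases, shorter than a read of 50 bases, whereas MT1X shares a run of 63 bases with MT2A. A read that matches several genes exactly was counted for none of them. Of the 50-base windows in the principal transcript, those found in no other annotated gene were 95.1% for MT2A, 94.7% for MT1E, 96.4% for MT1F and 94.2% for MT1A. The share was 84.0% for MT1X and 79.8% for MT1G, which have 47 windows in common. On these transcripts, most reads from MT2A and MT1E can thus be placed. MT1X and MT1G lose a larger part, and their values carry that uncertainty. The transcripts of MT2A and MT1X begin upstream of the RefSeq start used below, and shares without those upstream bases were not computed.

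**Figure D1:**
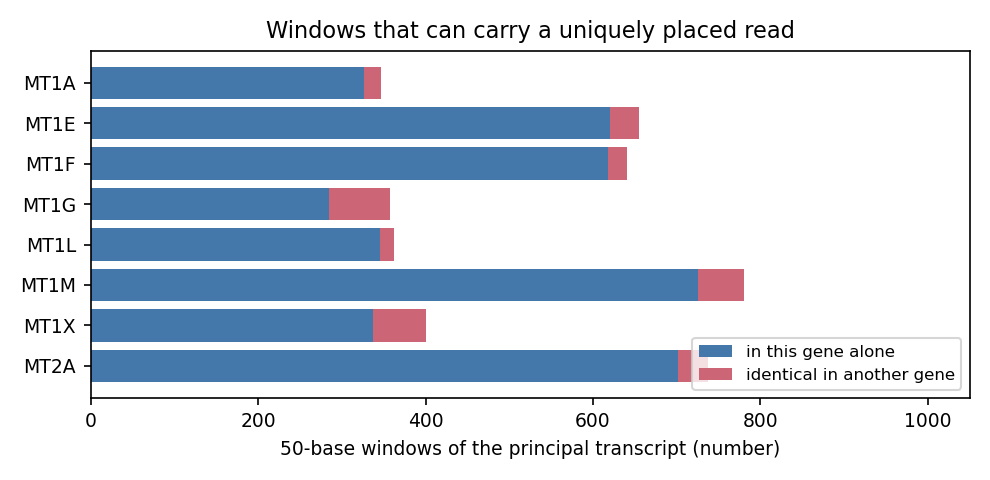
Number of 50-base windows in the principal transcript of each metallothionein gene, divided into windows found in that gene alone and windows identical in another annotated gene. MT1G and MT1X have the largest shares of windows in common with other genes, and in the other genes most windows are found in that gene alone.

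Promoter sequence was available for MT2A, MT1X and MTF1 among the 9 genes, and for SLC30A1. The 250 bases before each RefSeq start (GRCh38.p14) were searched on both strands for the core of the metal response element, spelled TGCACNC or TGCGCNC. MT2A had 7 matches, MT1X had 4, SLC30A1 had 1 and MTF1 had 0. Among other metallothionein genes, MT1H had 8 matches and MT1B and MT4 had 3 each, and these 3 genes had no read in any library. Among 35116 human promoter windows of the same length, 24.8% had at least 1 match, 0.37% had at least 4 and 0.0313% had at least 7, and the median was 0. A match is a string of letters and does not show that MTF1 binds there. Each match is shown with up to 9 flanking bases, as read 5′ to 3′ on the strand of the core, with the core in capitals and its distance before the start in the name.
MT2A at 246 bases, gene strand: ccgcTGCACCCagccccttc
MT2A at 168 bases, other strand: acccggctcTGCACACgggccgcgg
MT2A at 153 bases, gene strand: agagccgggTGCGCCCggcccagtg
MT2A at 139 bases, gene strand: ccggcccagTGCGCGCggccgggtg
MT2A at 88 bases, other strand: ggcgctgccTGCACACgccccgcgc
MT2A at 54 bases, gene strand: cggggctttTGCACTCgtcccggct
MT2A at 8 bases, gene strand: ttgccgcgcTGCACTCc
MT1X at 150 bases, gene strand: gccccgcggTGCGCCCggcgctggg
MT1X at 122 bases, gene strand: acgggttgcTGCACCCggcccagga
MT1X at 78 bases, other strand: cctcgtcctTGCACCCgcccctgct
MT1X at 53 bases, gene strand: cggggcctcTGCGCCCggccctctt
SLC30A1 at 49 bases, other strand: actttgcttTGCACTCggaaccccc

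The searched windows are chr16:56608334-56608583 for MT2A, chr16:56682220-56682469 for MT1X, chr1:211579162-211579411 for SLC30A1 and chr1:37859593-37859842 for MTF1, the last 2 on the minus strand. GENCODE sets other starts for some of these genes, with longer transcripts of MT2A and MT1X that begin upstream of the RefSeq start and a SLC30A1 transcript that begins downstream of it. MT2A, MT1X and SLC30A1 each have a core between 43 and 54 bases before the start, on the gene strand in MT2A and MT1X and on the other strand in SLC30A1. The matches of MT2A are spread over the whole window, and those of MT1X begin 150 bases before the start.

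**Figure D2:**
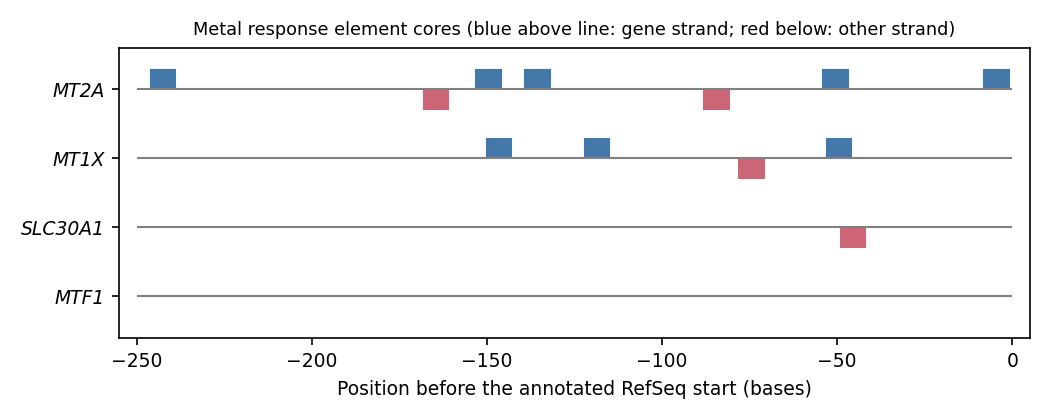
Positions of metal response element cores in the 250 bases before the RefSeq start of MT2A, MT1X, SLC30A1 and MTF1, with blue boxes for the gene strand and red boxes for the other strand. The 7 cores of MT2A, the 4 of MT1X and the single core of SLC30A1 are drawn to scale, and MTF1 has none.

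Counts on genes summed to between 17304864 and 23132102 per library, and are given as counts scaled to library size (CPM). At this depth 3 reads, taken as the floor of detection, were worth 0.127 to 0.177 CPM. PELP1 itself was at 57.8 CPM ± 2.13 in the controls and at 29.5 CPM ± 0.876 after knockdown (SD, n = 3 each), a log2 fold change (log2FC) of -0.97. The lines expressed the mesenchymal markers VIM and CD44 and the keratin KRT18 in every replicate, and all 3 were lower in PELP1-KD cells. CD44 had a log2FC of -0.55 (1208 to 828 CPM), VIM of -0.21 (2220 to 1922 CPM) and KRT18 of -0.21 (281 to 242 CPM), with adjusted p of 8.61e-13, 7.18e-06 and 1.18e-05 in edgeR. Of 5 tested genes listed for the line, these 3 were lower and 0 higher, beside 24.2% and 22.7% of all 12796 tested genes. The other 2, the epithelial gene EPCAM and the receptor gene ERBB2, were not called. Their log2FC was 0.03 and 0.06 (adjusted p = 0.849 and 0.279, edgeR). CDH1, an epithelial cadherin, had 8 reads in all 6 libraries together and was not tested. The part of these markers in the metallothionein results was not tested. The estrogen receptor ESR1 had 3 reads and the progesterone receptor PGR 9 reads in all 6 libraries together, and the receptor gene ERBB2 had 113 CPM in the controls and 118 CPM in PELP1-KD cells. Of 6 markers of other cell types, PTPRC and MYH7 had no read, ALB had 2, GFAP 19 and PECAM1 25. COL1A1, a fibroblast collagen, was at 5.84 CPM in the controls and 18.1 CPM in PELP1-KD cells (log2FC 1.61, adjusted p = 3.23e-10 in edgeR), and its part in the results below was not tested.

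MT2A and MT1E were lower in PELP1-KD cells, MT1X was called lower close to the threshold, and no metallothionein was called higher. In the quasi-likelihood test of edgeR, 3 of 5 tested metallothioneins fell and 0 rose at an adjusted p below 0.05, where 24.2% of all 12796 tested genes fell and 22.7% rose. At an unadjusted p below 0.05 the counts were also 3 and 0. DESeq2 called 2 lower, MT2A and MT1E but not MT1X, and 0 higher. The median log2FC of the 5 genes was -0.27, beside 0.0014 for all tested genes. In 2 of the 5, MT2A and MT1E, the groups did not overlap and PELP1-KD cells were lower, a pattern found in 28.0% of all tested genes. Scaling by library totals alone changed the balance of all genes from 3103 lower and 2904 higher to 2419 lower and 3817 higher. It left 2 metallothioneins lower, again MT2A and MT1E, and 0 higher.

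MT2A was by far the most abundant metallothionein, and ranked 483 of the 12796 tested genes by mean CPM. It had 387, 400.1 and 404 CPM in control replicates 1, 2 and 3, and 287, 287 and 273 CPM in PELP1-KD replicates 1, 2 and 3. The replicates of each group lay close together, and the groups were well apart. The level fell by 28.9%, from 397 CPM ± 9.06 to 282 CPM ± 7.80 (SD, n = 3 each), and the log2FC of -0.49 had a standard error of 0.032 (adjusted p = 1.14e-10, edgeR). The reads behind these values were 6544, 9095 and 7178 in the controls and 5593, 6117 and 6433 in PELP1-KD cells, so that counting error was below the spread between replicates. Of all tested genes, 5.52% had a lower log2FC than MT2A. Its log2FC stayed between -0.51 and -0.44 under 12 alternatives.

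MT1E, an isoform of the MT1 group, showed the lowest log2FC among the 5 tested metallothioneins. It had 54.5, 57.6 and 64.6 CPM in the 3 control replicates and 35.7, 36.0 and 37.5 CPM in the 3 PELP1-KD replicates. The highest PELP1-KD replicate was thus well below the lowest control, and the controls were the more variable group. The mean fell by 38.2%, from 58.9 CPM ± 5.19 to 36.4 CPM ± 0.947 (SD, n = 3 each), and the log2FC was -0.69 (standard error 0.061, adjusted p = 1.05e-08, edgeR). A lower log2FC was found in 2.77% of all tested genes. Under 12 alternatives the log2FC lay between -0.74 and -0.63.

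The fall of MT1E relative to MT2A was examined as a ratio of reads within each library, which does not depend on the scaling. For every 100 reads of MT2A, MT1E had 14.1, 14.4 and 16.0 reads in the controls and 12.4, 12.6 and 13.7 in PELP1-KD cells. All 3 PELP1-KD ratios were below all 3 control ratios, with means of 12.9 and 14.8. A two-sided exact permutation test of this ratio gave p = 0.1, the smallest p that 3 replicates against 3 allow, so a difference between the 2 genes was not established by this test.

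MT1X was expressed at a lower level and its fall was small. It had 12.8, 11.8 and 15.7 CPM in the controls and 10.4, 9.98 and 12.6 CPM in PELP1-KD cells. The groups overlapped, because PELP1-KD replicate 3 was above control replicate 2. The log2FC was -0.27 (standard error 0.11, adjusted p = 0.0469, edgeR), with means of 13.4 CPM ± 1.99 and 11.0 CPM ± 1.39 (SD, n = 3 each). The call did not hold in DESeq2 (adjusted p = 0.0972) or with scaling by library totals alone (log2FC -0.23, adjusted p = 0.103 in edgeR). It was also lost without control replicate 3 (log2FC -0.15, adjusted p = 0.278), without PELP1-KD replicate 1 (log2FC -0.24, adjusted p = 0.151) and without PELP1-KD replicate 2 (log2FC -0.21, adjusted p = 0.197). For every 100 reads of MT1E, MT1X had 22.7 ± 1.93 reads in the controls and 30.2 ± 3.04 in PELP1-KD cells (SD, n = 3 each), without overlap (exact permutation test, p = 0.1, the smallest possible). Against MT2A the ratios of MT1X overlapped (exact permutation test, p = 0.4).

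MT1A and MT1F, also isoforms of the MT1 group, were close to the limit of what these libraries can measure. MT1A had 9, 27 and 16 reads in the controls and 23, 23 and 28 in PELP1-KD cells, and MT1F had 29, 27 and 22 reads and 31, 49 and 31. In CPM, both genes overlapped between the groups. MT1A was at 0.873 CPM ± 0.329 in the controls and 1.15 CPM ± 0.0618 in PELP1-KD cells (SD, n = 3 each), with a log2FC of 0.35 whose 95% interval ran from -0.24 to 0.93 (adjusted p = 0.328, edgeR). MT1F was at 1.38 CPM ± 0.29 and 1.73 CPM ± 0.505 (SD, n = 3 each), with a log2FC of 0.34 and an interval from -0.18 to 0.86 (adjusted p = 0.271, edgeR). Neither passed the test, and the intervals are too wide to tell a fall from a rise. When single replicates were removed, MT1F had a log2FC from 0.084 (without PELP1-KD replicate 2) to 0.52 (without PELP1-KD replicate 3). That of MT1A ranged from 0.11 (without control replicate 1) to 0.67 (without control replicate 2).

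The other metallothioneins were at or near 0. MT1G had 1, 8 and 2 reads in the controls and 1, 1 and 5 in PELP1-KD cells, MT1L had 1 read in PELP1-KD replicate 1 and none elsewhere, and MT1M had no read in any library. None of these 3 genes passed the filter on low counts. A count of 0 allows up to 3 reads, or 0.127 to 0.177 CPM depending on the library, and covers counting error only. A further 7 metallothionein genes of the count tables that do not belong to the group were not tested either. Of these, MT1B, MT1H, MT4 and the pseudogenes MT1DP and MT1IP had no read, MT3 had 1 read and the pseudogene MT1JP had 3. MT3 and MT4 are known as isoforms of the brain and of stratified epithelia.

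**Figure D3:**
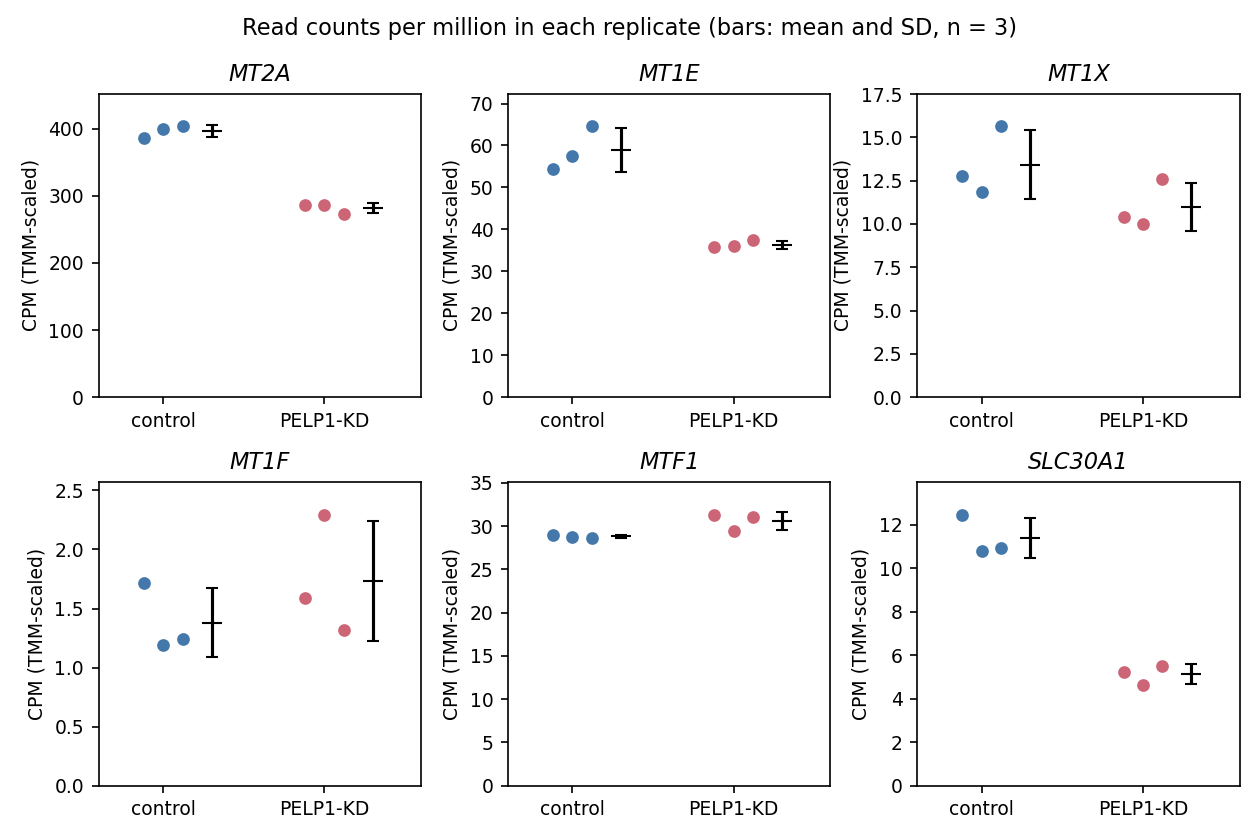
Expression in CPM of MT2A, MT1E, MT1X, MT1F, MTF1 and SLC30A1 in each control (blue) and PELP1-KD (red) replicate, with the mean and SD (n = 3) beside the points and each axis starting at 0. The groups are separate for MT2A, MT1E and SLC30A1, which are lower in PELP1-KD cells, and for MTF1, whose 2 means of 28.8 and 30.6 CPM are close, while those of MT1X and MT1F overlap.

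To compare levels between genes, CPM were divided by the length of the principal transcript in kilobases (RPKM). The lengths were 786 bases for MT2A and 450 bases for MT1X, from GENCODE transcripts that begin upstream of the RefSeq start. With a shorter transcript from the RefSeq start, the RPKM of these 2 genes would be higher, by an amount that was not computed and can differ between them. For MT1A, MT1E, MT1F and MT1G no RefSeq start was available to compare. The distances between genes given here therefore hold for these lengths only. In the controls MT2A was at 505 RPKM, MT1E at 83.7, MT1X at 29.8, MTF1 at 3.61, MT1A at 2.21 and MT1F at 2.00 RPKM. MT1G was at 0.430 RPKM ± 0.384 (SD, n = 3) in the controls, from 1, 8 and 2 reads. Its mean of 0.175 CPM lay at the floor of detection, so MT1G was not ranked. In PELP1-KD cells the values were 359 RPKM for MT2A, 51.7 for MT1E, 24.4 for MT1X, 3.84 for MTF1, 2.90 for MT1A and 2.51 for MT1F. The first 4 genes in this order were each apart from the next by more than the SD of either. By transcript length, MT1A and MT1F did not differ beyond their spread in either group, with SDs of 0.830 and 0.421 RPKM in the controls. With the full exon length of each gene in place of the transcript length, MT2A was at 306 RPKM and MT1E at 56.0 in the controls. MT1X was at 7.57 RPKM and MT1F at 0.731, since both genes have long alternative exons. MT1A stayed at 2.21 RPKM, so the place of MT1F beside MT1A depends on the length used.

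Reads of all 8 metallothioneins summed to 472 CPM ± 15.1 in the controls and 333 CPM ± 5.74 in PELP1-KD cells (SD, n = 3 each), which was 29.5% lower. The log2 ratio of the sums was -0.50, and without MT2A it was -0.57. A sum is less affected by which copy a read was assigned to, though reads that match several copies are missing from it as well. MT2A made up between 83.0% and 84.8% of these reads in the controls and between 83.8% and 85.4% in PELP1-KD cells, and these ranges overlapped. MT1E made up between 11.9% and 13.3% in the controls and between 10.6% and 11.5% in PELP1-KD cells, without overlap.

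MTF1, the regulator of these genes, was not called in either direction. It had 29.0, 28.7 and 28.7 CPM in the controls and 31.3, 29.4 and 31.1 CPM in PELP1-KD cells. Every PELP1-KD replicate was above every control, a pattern found in 27.0% of all tested genes. The means were 28.8 CPM ± 0.19 and 30.6 CPM ± 1.07 (SD, n = 3 each), and the log2FC of 0.09 had a 95% interval from -0.04 to 0.21 (adjusted p = 0.242, edgeR). The controls differed from each other by 0.676% (coefficient of variation), less than the 4.26% that counting error alone would give for their reads. The zinc-dependent activity of the protein was not measured.

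Genes of zinc transport were counted next, because zinc acting through MTF1 is one of the known inputs to metallothionein expression. Free zinc was not measured in these cells, and its part in the results was not tested. Among the zinc exporters of the SLC30 family, 4 of 7 tested genes fell and 1 rose, beside 24.2% and 22.7% of all tested genes, and the median log2FC was -0.16. Scaling by library totals alone gave 3 that fell and 1 that rose. SLC30A1, the exporter of the plasma membrane that MTF1 is known to drive, had 12.5, 10.8 and 10.9 CPM in the controls and 5.23, 4.64 and 5.52 CPM in PELP1-KD cells. The groups were far apart, and the highest PELP1-KD value was well below the lowest control. Its mean fell by 55.0%, from 11.4 CPM ± 0.939 to 5.13 CPM ± 0.450 (SD, n = 3 each), and its log2FC was -1.14 (standard error 0.11, adjusted p = 4.18e-08, edgeR). SLC30A3, a transporter of synaptic vesicles, moved the other way, from 1.41 CPM to 4.31 CPM (log2FC 1.61, adjusted p = 1.64e-07, edgeR), at a low level in both groups. SLC30A5, which loads zinc into the secretory pathway, fell with a log2FC of -0.26 and an adjusted p of 0.000214. SLC30A2, SLC30A8 and SLC30A10 had no read in any library.

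Zinc importers of the SLC39 family did not share a direction. Of 11 tested genes, 5 rose and 3 fell, beside 22.7% and 24.2% of all tested genes. The median log2FC was 0.12, and scaling by library totals alone gave 7 that rose and 2 that fell. SLC39A11 and SLC39A4, the importer of the intestine, rose with a log2FC of 0.38 and 0.33 (adjusted p = 0.00495 and 0.00141, edgeR). SLC39A13 and SLC39A10 fell with a log2FC of -0.20 and -0.16 (adjusted p = 0.00172 and 0.00166, edgeR). None of the tested importers had a log2FC as far from 0 as that of MT2A.

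**Figure D4:**
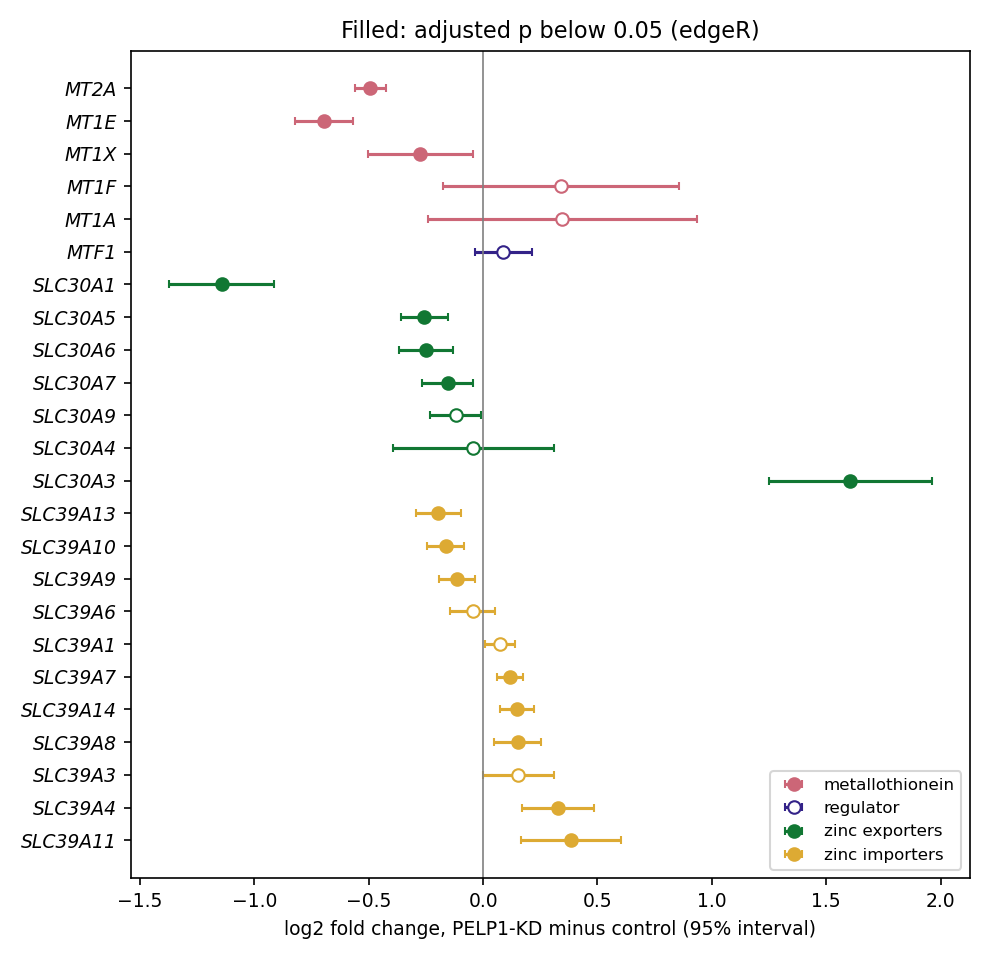
Log2 fold change between PELP1-KD and control cells for the tested metallothioneins, MTF1, zinc exporters and zinc importers, with 95% intervals and filled points for an adjusted p below 0.05 in edgeR (n = 3 per group). MT2A, MT1E, MT1X and SLC30A1 lie below 0, SLC30A3 is far above, and the intervals of MT1A, MT1F and MTF1 include 0.

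Metallothioneins also bind copper, and genes of copper handling were counted in the same way. Of 12 genes tested, 6 rose and 1 fell, where 22.7% of all tested genes rose and 24.2% fell. Their median log2FC was 0.16, and scaling by library totals alone gave 8 and 1. ATP7A, a copper-exporting ATPase, rose from 9.26 CPM ± 0.993 to 14.1 CPM ± 0.577 (SD, n = 3 each), with a log2FC of 0.61 (adjusted p = 1.98e-05, edgeR). COMMD1, which takes part in copper export, rose by 0.38 on the log2 scale (adjusted p = 0.00194, edgeR). COX11, an assembly factor of the copper-containing cytochrome c oxidase, had a log2FC of -0.18 (adjusted p = 0.00747, edgeR).

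Genes induced by metals and oxidants together with metallothioneins changed in both directions. Of 12 genes of this metal stress response, 4 rose and 3 fell, beside 22.7% and 24.2% of all tested genes. The median log2FC was 0.10, and scaling by library totals alone gave 6 that rose and 2 that fell. HMOX1, the heme oxygenase that cadmium and oxidants induce, had 22.2, 22.1 and 21.6 CPM in the controls and 31.0, 30.0 and 32.0 CPM in PELP1-KD cells. It was higher in all 3 PELP1-KD replicates, and the log2FC was 0.50 (standard error 0.063, adjusted p = 1.62e-06, edgeR). SELENOW, a small selenoprotein, rose by 0.41 (adjusted p = 5.6e-07, edgeR). GCLM, a subunit of the enzyme that limits glutathione synthesis, and TXNRD1, a thioredoxin reductase, fell with a log2FC of -0.35 and -0.14 (adjusted p = 9.94e-06 and 0.000296, edgeR).

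Several metallothionein genes carry glucocorticoid response elements, and genes that respond to glucocorticoids were examined with the receptor. Of 10 tested genes of this list, 4 rose and 3 fell, beside 22.7% and 24.2% of all tested genes, and the median log2FC was -0.05. The number that rose was 2 without control replicate 3 and also 2 without PELP1-KD replicate 1. NR3C1, the glucocorticoid receptor, is itself counted among these 10 genes and among the 3 that fell. Its level was 169, 151 and 156 CPM in the controls and 128, 118 and 123 CPM in PELP1-KD cells, without overlap. It fell by 0.37 on the log2 scale (standard error 0.044, adjusted p = 8.68e-07, edgeR), and GLUL, glutamine synthetase, fell by 0.19 (adjusted p = 0.000959, edgeR). PER1, a clock gene, and TSC22D3, a direct target of the receptor known as GILZ, rose with a log2FC of 0.64 and 0.45 (adjusted p = 7.31e-05 and 0.00315, edgeR).

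Among the genes whose log2 CPM followed that of MT2A most closely over the 6 libraries were TUBB3, a neuronal tubulin, and EPHB2, an ephrin receptor. Their Pearson correlations with MT2A were 0.9999 and 0.998. The 6 points share 2 groups, so such values arise for any gene that differs between the groups with little spread, and 1014 of the 12791 other tested genes were above 0.95. The log2FC was -0.88 for TUBB3 and -0.32 for EPHB2.

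**Figure D5:**
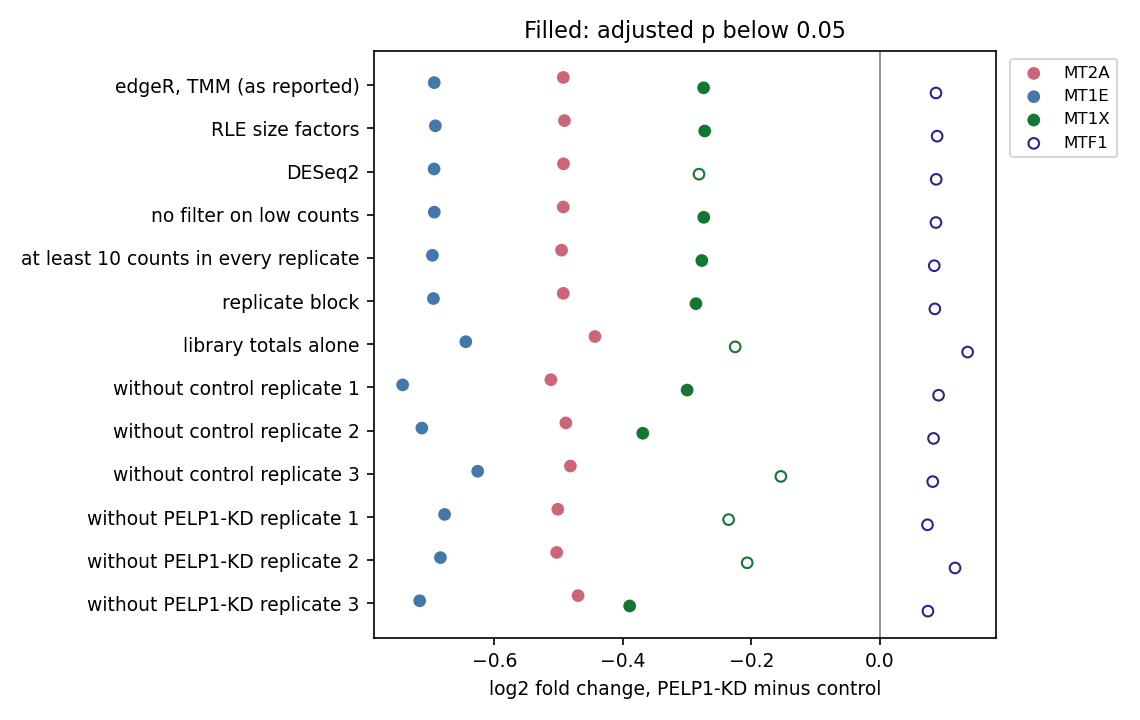
Log2 fold change between PELP1-KD and control cells for MT2A, MT1E, MT1X and MTF1 as reported and under 12 alternatives, with filled points for an adjusted p below 0.05. MT2A and MT1E are filled throughout, MT1X is open in 5 alternatives and MTF1 is open in all.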

How the data were processed

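RNA from MDA-MB-231 cells was sequenced by the authors from stranded poly(A) libraries as single reads of 50 bases, in 3 control and 3 PELP1-KD replicates. The authors deposited raw counts for each gene symbol and replicate, not normalized and without coordinates. Per the labels, the submitters' processing notes name bcl2fastq, TopHat2, SAMtools, HTSeq and the build hg19. Versions, the gene annotation and the strand setting of the counting are not given in the sources used here. The closing totals of each count table (no feature, ambiguous, not unique) made up between 41.0% and 41.4% of the sum of that table and were kept out. Reads with several alignments were counted on no gene, and their total was between 32.5% and 32.9% of that sum. These are shares of counts and may not be shares of reads.

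Everything else was computed in R 4.3.3 and Python 3.11.15. Genes were kept by filterByExpr (minimum of 10 counts), scaled by TMM, and tested across the whole table with edgeR 4.0.16 (quasi-likelihood, group as the only term), with Benjamini-Hochberg adjustment over 12796 genes. Standard errors were taken from the F statistic, as the log2FC over its square root. CPM are scaled by TMM, log2 CPM used a prior count of 2, and RPKM used lengths from GENCODE release 29. Coordinates are those of the GRCh38 annotations and not of the build used for the counting. Tested on counts drawn at random from the replicates' means, the script recovered 167 of 198 genes (84.3%) changed by 0.5 on the log2 scale. In the pathway lists, 2 symbols were matched by an older name. The genes named are all members, PELP1, in each pathway list the 2 called genes with the largest rise and the 2 with the largest fall, SLC30A1, NR3C1 and the 3 genes most like MT2A, of which 1 is not reported here. The genes and lists were chosen with earlier results of these data known. Marker genes and genes without reads are named as well, and the neighbouring genes were chosen after their values were seen.

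Alternatives were RLE size factors, DESeq2 1.42.0, no filter on low counts, a block for the replicate number, a minimum of 10 counts in each library, removal of each replicate in turn and scaling by library totals alone. The last was planned for the summed metallothioneins and added after the data were seen for the other results, as were all alternatives for the pathway genes. Proteomics and patient data were not analysed here.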

Additional observations from a re-analysis of the deposited data

Results flagged for a closer look

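The totals outside the gene counts, as shares of all counts in a library, differed between the groups. The share on no annotated feature was at least 7.89% in every PELP1-KD replicate and at most 7.82% in every control. The share not assigned because features overlap was at least 0.681% in PELP1-KD replicates and at most 0.665% in controls. The share for reads with several alignments, which near-identical copies lose, went the other way. It ran from 32.7% to 32.9% in controls and from 32.5% to 32.6% in PELP1-KD replicates, without overlap. What these shares hold is not counted for the metallothioneins, though reads lost from their near-identical copies can be among those with several alignments. The part of these shares in the metallothionein values was not tested.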

How the results depend on the processing

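Over 24 named genes and 12 alternatives, 282 of 287 values kept the direction and the side of the threshold. The other 5 were all of MT1X, whose call was lost as given above, and 0 were reversed. MT1X thus kept its call in 7 of 12 alternatives. Of the 24 genes, 18 were pathway genes, named mainly because they were already called with the largest changes in these data. That choice makes it likely in advance that their calls stay, so the pooled count says little about the metallothioneins. The log2 ratio of the summed metallothioneins was -0.50, and it was -0.45 with library totals alone, -0.57 without MT2A and between -0.53 and -0.48 with each replicate left out in turn. With each replicate left out, 2 or 3 metallothioneins were lower and 0 higher. Deviations of replicates with the same number from their group means correlated at 0.039, 0.065 and -0.078, so the numbers were not taken as a pairing. With the replicate block, 3 metallothioneins were lower and 0 higher, and the log2FC was -0.49 for MT2A, -0.70 for MT1E, -0.29 for MT1X (adjusted p = 0.00807, edgeR) and 0.09 for MTF1. MT1A could not be fitted with at least 10 counts in every replicate, since control replicate 1 had 9. Depth limits MT1A, MT1F and MT1G, whose reads were few, and reads that match several copies are missing from MT1X and MT1G in every setting.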

Other observations

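Genes around the cluster were examined for their own changes. Within 500 kb of either end, 15 genes other than the metallothioneins were in the count tables and 10 were tested. Of these, 4 fell (NUDT21, OGFOD1, HERPUD1 and CPNE2) and 1 rose (GNAO1), beside 24.2% lower and 22.7% higher among all tested genes, and the median log2FC was -0.04. CPNE2, a copine, had the lowest log2FC of these genes, -0.46 (47.4 to 34.6 CPM, adjusted p = 2.48e-06, edgeR). NUDT21, a subunit of the cleavage factor that sets polyadenylation sites, fell from 366 CPM to 290 CPM, with a log2FC of -0.34 (adjusted p = 3.25e-07, edgeR). GNAO1, a G protein subunit, rose from 19.9 CPM to 27.8 CPM, with a log2FC of 0.48 (adjusted p = 6.71e-06, edgeR). These genes were chosen after their values were seen.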
